A study of Mus musculus with 12 samples.

Results

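The genes described here are those whose mRNA level differed both between AMPK-KO and WT tumor-associated macrophages (TAMs) and between late-stage and early-stage TAMs of B16 melanoma. They were chosen by measured values: in each comparison the log2 ratio of the group means, in CPM (counts scaled to a common library total), had to reach 0.58 in absolute size, and the 3 libraries of one group had to lie wholly above or below the 3 of the other. Only autosomal genes with a mean of 5 CPM or more in at least 1 group of each comparison were considered, which left 10169 of the 55401 genes counted, and 228 of them met the rule in both comparisons. Because both comparisons selected these genes, their ratios are given as a description and carry no test. They fall into 4 direction classes. Of the 228, 88 were lower in both AMPK-KO and late-stage TAMs, 49 were higher in both, 79 were higher in AMPK-KO but lower in late-stage TAMs, and 12 were lower in AMPK-KO but higher in late-stage TAMs.

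All 12 libraries were made from TAMs of subcutaneous B16-F10 tumors, a pigmented mouse melanoma line. The methods define TAMs by the surface markers CD45, CD11b and F4/80 without Ly6C or Ly6G. The supplementary legend of the gating strategy writes both Ly6C and Ly6G as positive, and that of TAM frequency writes Ly6C alone as positive. Whether Ly6C-positive cells were left out is thus not settled by these sources. The WT group was TAMs of AMPKfl/fl mice, labelled with the floxed alleles and no cre, and the AMPK-KO group was TAMs of AMPKfl/fl Lyz2cre/cre mice, in which a cre driven from the lysozyme M locus acts in the myeloid lineage as a whole. The methods place both at day 15 after implantation, and the genotype field of AMPK-KO replicates 2 and 3 writes Lyz3 and Lyz4 where the titles write Lyz2. Early-stage TAMs came from day 8 and late-stage TAMs from day 15 tumors of wild-type mice, for which no floxed alleles are named. The name WT is kept here for the AMPKfl/fl group alone. The methods describe mice of 5 weeks and, for the purchased C57BL/6 animals, female sex. Each group had 3 libraries, and no source used here says whether these came from separate animals, so the p-values of the fits below measure only the spread between libraries. The 2 comparisons share no library.

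AMPK is the kinase that senses a low energy charge of the cell, restrains anabolic pathways and favors catabolism and oxidative metabolism. TAMs are a mixture of tissue-resident-type macrophages, which carry scavenger receptors and handle iron and lipids, and of cells that differentiate in the tumor from Ly6C-positive, CCR2-dependent blood monocytes. As a tumor grows this mixture changes, and with it the balance of scavenging, inflammatory and antigen-presenting genes. In bulk libraries, fewer cells of a type and less RNA per cell cannot be told apart.

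Prkaa1, which encodes the catalytic subunit AMPK alpha 1, was measured at 69.8, 61.8 and 63.2 CPM in the WT libraries and at 47.1, 41.0 and 40.7 CPM in the AMPK-KO libraries, which do not overlap. In early-stage TAMs it lay between 62.9 and 80.8 CPM and in late-stage TAMs between 55.2 and 64.9 CPM. Library totals ranged from 71019494 to 84470374 counts. Lyz2, the locus that carries the cre, stood at 9.15 to 13.3 CPM in WT and 9.18 to 13.4 CPM in AMPK-KO TAMs, against 2453 to 2950 CPM in early-stage and 1108 to 1130 CPM in late-stage TAMs. The WT level was thus as low as that of the AMPK-KO libraries, which goes against a label without the cre allele, so that WT and AMPK-KO here mean the libraries so labelled. Counts of Uty, Kdm5d, Ddx3y and Eif2s3y, which are Y-linked, summed to 9229 to 11360 counts in WT, 11299 to 12183 in AMPK-KO and 3435 to 4035 in early-stage libraries, and to 0 to 4 counts in late-stage libraries. Xist, expressed from the inactive X chromosome, lay at 0.818 to 2.22 CPM in WT and 0 to 0.0999 CPM in AMPK-KO, against 161 to 286 CPM in early-stage and 299.9 to 506 CPM in late-stage libraries. The WT and AMPK-KO libraries held Y-linked RNA and little Xist, a male pattern. The methods can be read as giving female sex for those mice too, which that pattern goes against. The Y-linked counts of the early-stage libraries go against the female mice of the methods, and early-stage libraries hold both Xist and Y-linked RNA. Tumor stage and the sex of the cells cannot be told apart in these libraries. No member lies on a sex chromosome, because the rule kept autosomal genes alone, and this does not separate sex from stage. The summed level of 18 macrophage identity genes was 22822 to 24768 CPM in WT, 21242 to 22158 CPM in AMPK-KO, 16040.5 to 20741 CPM in early-stage and 20628 to 20889 CPM in late-stage TAMs, with none of the 18 at 0.

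The joint occurrence of the 2 differences was set against the share of all 10169 genes that met each comparison alone. For AMPK-KO against WT, 441 genes met the ratio and separation criteria upward (4.34%) and 342 downward (3.36%). For late-stage against early-stage, 301 met them upward (2.96%) and 368 downward (3.62%). Among the 342 genes lower in AMPK-KO, 88 were also lower in late-stage TAMs, which is 25.7% of that list and 23.9% of the 368 genes lower in late-stage TAMs. The 79 genes higher in AMPK-KO and lower in late-stage TAMs made up 17.9% of the 441 and 21.5% of the 368. Those higher in both, 49 genes, made up 11.1% of the 441 and 16.3% of the 301. The 12 genes lower in AMPK-KO and higher in late-stage TAMs were 3.51% of the 342 and 3.99% of the 301, close to the 2.96% and 3.36% of the pool.

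**Figure D1:**
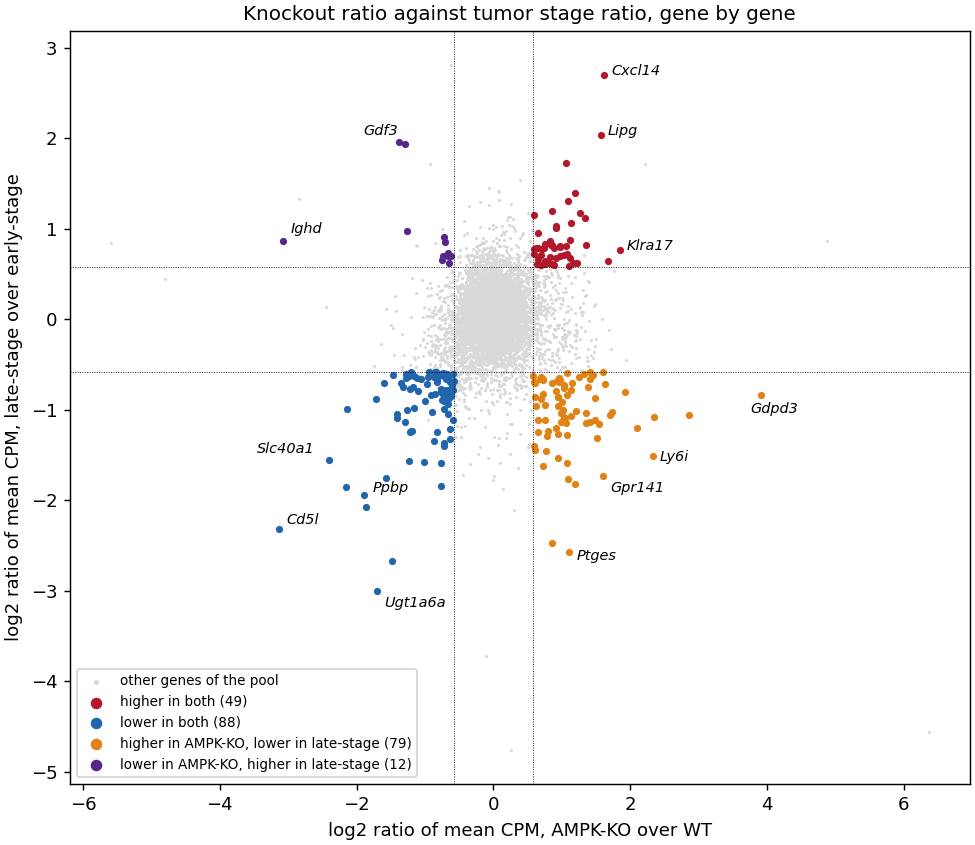
Each point is 1 of 10168 genes of the pool with a finite ratio, with the log2 ratio of mean CPM of AMPK-KO over WT on the x axis and of late-stage over early-stage on the y axis; dotted lines mark 0.58 and colors the 4 classes. Below the zero line lie 88 members on the left and 79 on the right, and the upper left quadrant holds 12.

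**Figure D2:**
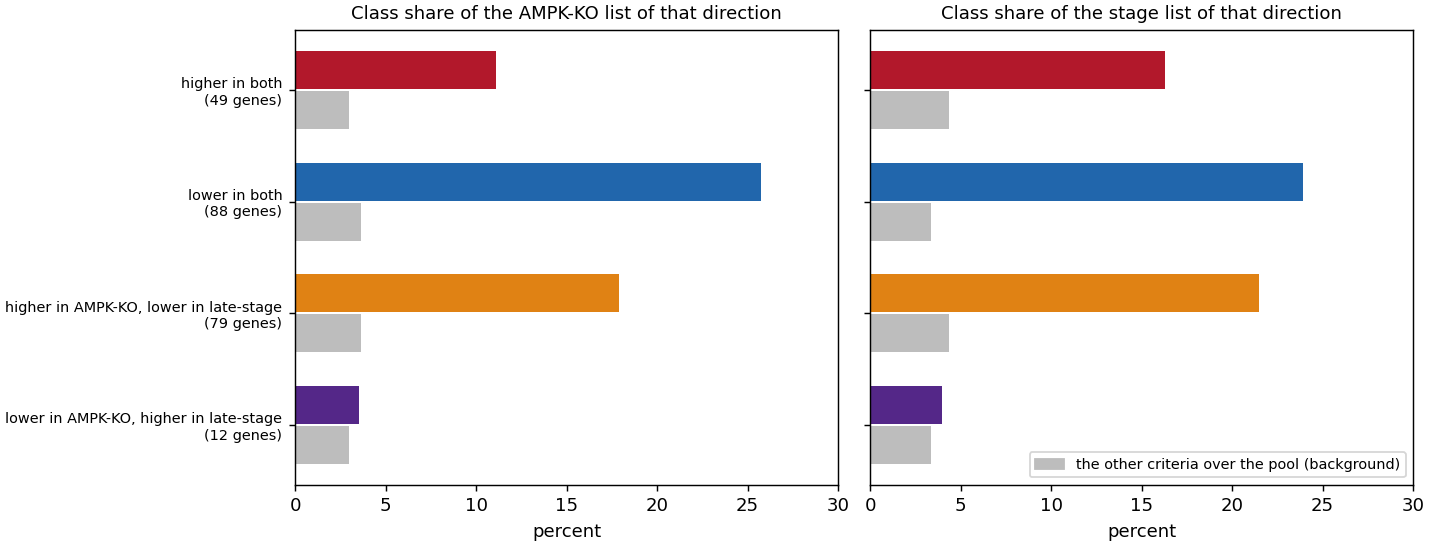
Bars give, in percent, the share of the genes that met the AMPK-KO criteria (left) or the stage criteria (right) in the direction of a class and also belong to that class; grey bars give the share of all 10169 genes that met the other comparison's criteria in that direction. The class lower in both reached 25.7% and 23.9%, and the class lower in AMPK-KO and higher in late-stage 3.51% and 3.99%.

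Over all 10168 genes with a finite ratio the 2 log2 ratios were nearly unrelated, with a Pearson r of 0.05 and a Spearman rho of 0.08 across genes, which are not independent of each other. Within the class lower in both, the AMPK-KO ratio was the larger in absolute size for 44 genes and the stage ratio for the other 44, and the median log2 ratios were -0.85 and -0.82. The class higher in AMPK-KO and lower in late-stage TAMs had medians of 1.03 and -1.001, and 25 of its 79 genes differed at least by a log2 of 1 in both comparisons. The corresponding number was 17 of 88 for lower in both, 8 of 49 for higher in both and 2 of 12 for the last class. Just inside the ratio limit were Tfec (-0.58 and -0.68, AMPK-KO ratio first), Cdk15 (-0.83 and -0.58) and Gm18853 (0.58 and -0.63). Just outside it were Inpp5j (1.52 and -0.58), Ryk (-0.88 and -0.58) and Cxcl3 (-0.78 and -0.58), whose unrounded stage ratios fell short of the limit. On the level limit, Arhgef37 and Cystm1 were just inside with 5.15 and 5.19 CPM in the higher group of their lower comparison, and Kif1a and C4a just outside with 4.91 and 4.85 CPM.

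Genes lower in both AMPK-KO and late-stage TAMs included markers of resident-type scavenger macrophages, and 63 of the 88 were on none of the gene lists. Of the 16 genes of that marker list in the pool, 10 belonged to this class and none to another class. Cd5l, a secreted scavenger protein of tissue macrophages (ENSMUSG00000015854.7, chr3:87357881-87371073 on GRCm38), was measured at 46.9, 50.4 and 47.1 CPM in WT, 5.86, 4.96 and 5.69 CPM in AMPK-KO, 19.1, 18.8 and 17.8 CPM in early-stage and 3.21, 3.79 and 4.16 CPM in late-stage libraries. Its log2 ratios were -3.13 for AMPK-KO over WT and -2.32 for late-stage over early-stage, and the WT libraries stood highest of the 4 groups. Marco, a class A scavenger receptor, was measured at 57.7, 66.8 and 69.7 CPM in WT and 17.4, 18.8 and 17.4 CPM in AMPK-KO against 21.9, 17.3 and 12.98 CPM in early-stage and 3.78, 3.59 and 4.98 CPM in late-stage TAMs, so that AMPK-KO and early-stage libraries overlapped. For Slc40a1, which encodes the iron exporter ferroportin, WT libraries were at 129, 122 and 132 CPM and AMPK-KO libraries at 23.6, 23.7 and 24.9 CPM. Early-stage libraries were at 98.1, 106 and 124 CPM and late-stage libraries at 34.9, 36.6 and 40.2 CPM for the same gene, so that the knockout ratio (-2.41) exceeded the stage ratio (-1.55). The hemoglobin-haptoglobin receptor Cd163 (-0.77 and -1.59), the hyaluronan receptor Lyve1 (-0.77 and -1.85) and the carbonyl reductase Cbr2 (-1.01 and -1.58) had the opposite emphasis, with the larger ratio in the stage comparison. Folr2, the folate receptor beta, differed by -0.72 and -0.99, the lectin Fcna by -0.97 and -0.72, the platelet-type chemokine Pf4 by -1.01 and -0.90, and Gas6, a ligand of the Axl and Mer receptor kinases, by -1.12 and -0.65.

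Other members handle heme, iron and oxidative stress. Hmox1, the heme oxygenase that opens heme and frees its iron, was measured at 3178, 3337 and 3253 CPM in WT, 1245, 1250.4 and 1323 CPM in AMPK-KO, 3503, 3237 and 2909 CPM in early-stage and 1876, 2024 and 2013 CPM in late-stage libraries. Its level was the highest of any named member in each of the 4 groups on the CPM scale, which is not corrected for gene length. Gclm, the modifier subunit of the enzyme that starts glutathione synthesis, lay at 103, 108 and 115 CPM in WT and 46.9, 51.3 and 43.6 CPM in AMPK-KO TAMs, and at 124, 129 and 124 CPM in early-stage and 78.2, 85.9 and 87.2 CPM in late-stage TAMs. Akr1b8, an aldo-keto reductase, had log2 ratios of -2.15 and -0.99, Gstm1, a glutathione S-transferase, of -1.32 and -0.74, and Me1, the cytosolic malic enzyme that makes NADPH, of -0.87 and -0.63. These 5 are the members among 25 genes in the pool from a list of targets of NRF2, the transcription factor of the antioxidant response, and no target on that list belonged to another class. Of the 10 members that lead the class by the smaller of their 2 ratios, Ppbp, another platelet-type chemokine that neighbors Pf4 within 200 kb on chromosome 5, was measured at 86.3, 90.2 and 100.2 CPM in WT, 26.0, 25.4 and 23.0 CPM in AMPK-KO, 84.6, 90.9 and 87.3 CPM in early-stage and 21.5, 24.5 and 22.3 CPM in late-stage libraries, nearly the same step in both comparisons. Ednrb, the endothelin B receptor, differed more by stage (67.8, 77.5 and 89.4 CPM against 14.6, 12.4 and 10 CPM) than by genotype (203, 194 and 207 CPM against 75.7, 74.6 and 66.2 CPM). Gja1, which encodes connexin 43, had log2 ratios of -1.23 and -1.56, Npl, a sialic acid lyase, of -1.21 and -1.24, Sel1l3 of -1.57 and -1.76, and the phosphodiesterase Pde2a of -2.16 and -1.86. Ugt1a6a, a glucuronosyltransferase that shares exons with 9 other annotated genes and is therefore uncertain, was uneven, with 10.7, 2.53 and 1.78 CPM in the AMPK-KO libraries, and its ratio of -1.70 became -2.92 without AMPK-KO replicate 1.

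Spp1, which encodes osteopontin, was measured at 650.0, 671 and 665 CPM in WT and 253, 245 and 253 CPM in AMPK-KO TAMs, and at 1014, 1063 and 994 CPM in early-stage and 424, 501 and 519 CPM in late-stage TAMs. The growth factor Igf1 differed by -1.10 and -0.79, the eotaxin Ccl24 by -1.40 and -1.05, the fatty acid and lipoprotein receptor Cd36 by -0.64 and -0.70, the sphingosine phosphate receptor S1pr1 by -1.28 and -0.60, the C-type lectin receptor Clec4d by -0.58 and -1.11, and Nckap1, a subunit of the actin-regulating WAVE complex, by -0.71 and -0.62. Of the 88 genes, 83 were protein-coding, 4 were lincRNAs and 1 was a processed pseudogene.

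Markers of the tumor cells moved with this class. Tyrp1, an enzyme of melanin synthesis, was itself a member and was measured at 294, 271 and 277 CPM in WT, 178, 169 and 159 CPM in AMPK-KO, 429.8, 475 and 540.4 CPM in early-stage and 194, 310.3 and 308 CPM in late-stage libraries. The summed level of the 12 melanocyte and B16 markers was 1057 to 1088 CPM in WT, 729 to 769.9 CPM in AMPK-KO, 1746 to 1923 CPM in early-stage and 837 to 1295 CPM in late-stage libraries, and none of the 12 was at 0 in a whole group. In late-stage replicate 1 this sum was 837 CPM, against 1275 and 1295 CPM in the other two. Without that library the class held 70 genes, and 20 of the 88 no longer met the rule, among them Yap1, Amotl1, Ptpn14, Vgll3, Fermt2, Nrcam, Nckap1, Me1, Gclm and S1pr1, of which the first 6 are named after their values were seen. The 9 erythroid markers, of which the beta-globin gene Hbb-bs was a member (-1.60 and -0.71), summed to 29.0 to 31.1 CPM in WT and 11.8 to 13.9 CPM in AMPK-KO, and to 17.5 to 21.5 CPM in early-stage and 15.6 to 17.0 CPM in late-stage libraries, with Slc4a1 at 0 in every library. Without Hbb-bs the erythroid sums of the stage groups overlapped, at 11.3 to 17.4 CPM in early-stage and 11.95 to 13.7 CPM in late-stage libraries. The part of tumor cell and red cell RNA in this class was not tested.

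**Figure D3:**
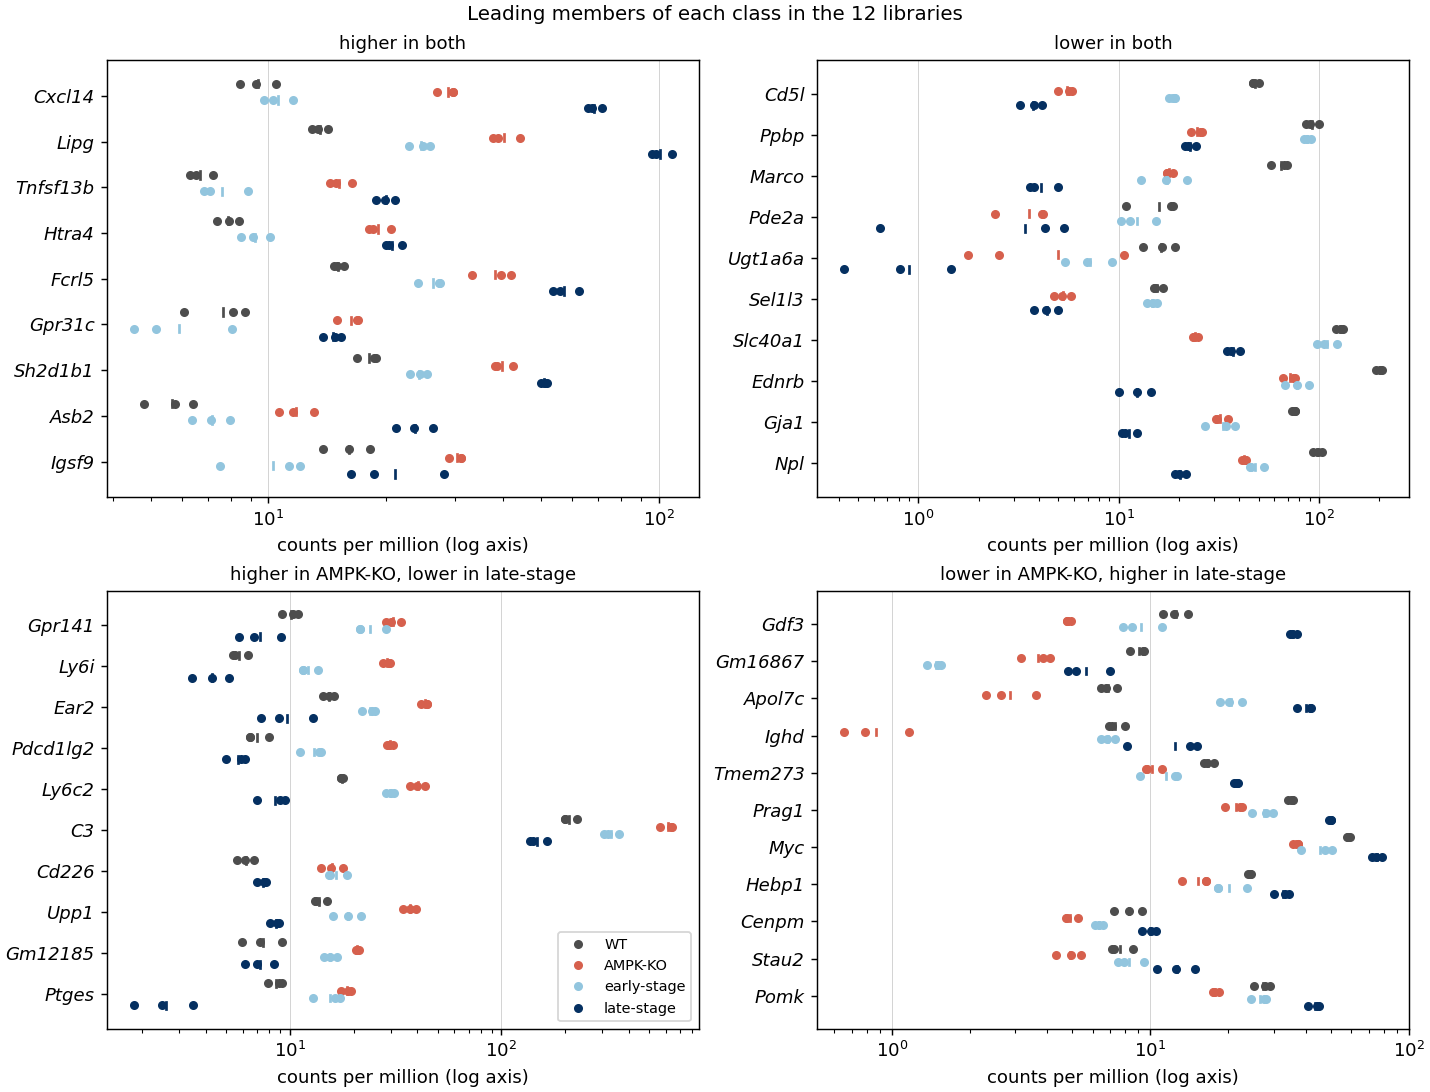
Points are CPM on a log axis in the 3 libraries of each of the 4 groups, with a short bar at the group mean, for leading members of each class. Within each comparison the points of the 2 groups do not overlap, which the rule requires, and for Cd5l the 3 WT libraries (46.9, 50.4 and 47.1 CPM) stand apart from all others.

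The promoter windows of the members were read from RefSeq (GRCm38.p6, from 250 bases before to 50 after each annotated start) as a property that the rule did not use. Of the 88 genes lower in both, 67 had an entry, with 87 windows in all. The AP-1 site TGANTCA, bound by FOS and JUN proteins, was present on either strand in 14 of these 87 windows (16.1%, 13 of 67 genes), against 5.26% of the 10142 windows of genes in the pool and 7.81% of all 32851 windows. The antioxidant response element core TGACNNNGC was present in 13 windows (14.9%), close to the 14.5% of the pool, against 24% of the windows of genes higher in both and 18.1% of those of genes higher in AMPK-KO and lower in late-stage TAMs. The AP-1 site and the antioxidant core can share letters, as in TGACTCAGC of Me1. Below are 61 bases before the start site of 4 members with an AP-1 site, shown because they are a chemokine, a gap junction protein, a growth factor and a folate receptor of this class, with the site in capitals.
Ppbp (chr5:90768287-90768347, plus strand): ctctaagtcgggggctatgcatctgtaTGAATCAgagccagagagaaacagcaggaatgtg
Gja1 (chr10:56377239-56377299, plus strand): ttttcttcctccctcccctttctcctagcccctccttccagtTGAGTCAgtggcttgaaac
Igf1 (chr10:87861047-87861107, plus strand): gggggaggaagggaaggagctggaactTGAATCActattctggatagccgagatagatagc
Folr2 (chr7:101845372-101845432, minus strand): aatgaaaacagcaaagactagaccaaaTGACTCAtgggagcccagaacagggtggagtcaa

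Genes higher in AMPK-KO but lower in late-stage TAMs included genes of monocytes, of inflammatory responses and of NK cells, and 55 of the 79 were on none of the gene lists. Ly6c2, which encodes the Ly6C antigen of inflammatory monocytes (ENSMUSG00000022584.14, chr15:75108158-75111970), was measured at 17.7, 17.5 and 17.4 CPM in WT, 37.1, 39.9 and 43.5 CPM in AMPK-KO, 31.0, 30.1 and 28.4 CPM in early-stage and 6.96, 8.93 and 9.48 CPM in late-stage libraries. The chemokine receptor Ccr2, which brings monocytes out of the bone marrow, stood at 233, 231 and 247 CPM in WT, 425, 408 and 383 CPM in AMPK-KO, 239, 271 and 345 CPM in early-stage and 123, 93.5 and 95.7 CPM in late-stage libraries. Gpr141, an orphan receptor and the leading gene of the class, had 9.21, 10.3 and 10.9 CPM in WT, 33.4, 28.6 and 29.9 CPM in AMPK-KO, 21.4, 21.5 and 28.6 CPM in early-stage and 9.06, 6.79 and 5.71 CPM in late-stage libraries. In all 3 genes the AMPK-KO libraries were the highest and the late-stage libraries the lowest of the 4 groups, with 1 early-stage library of Gpr141 level with the lowest AMPK-KO library. Plac8 (0.79 and -1.29) and the angiotensin-converting enzyme Ace (1.21 and -1.01) completed the 5 of 12 monocyte genes in the class. The summed level of those 12 genes was 1617 to 1712 CPM in WT and 1821 to 1874 CPM in AMPK-KO, and 1389 to 1632 CPM in early-stage and 684 to 785 CPM in late-stage libraries. Without the 6 members among them, the remainder was 1100.2 to 1225 CPM in WT and 923 to 969 CPM in AMPK-KO, the opposite order, and 806 to 957 CPM against 351 to 403 CPM by stage.

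Il1b, the cytokine interleukin 1 beta, was measured at 282, 289.5 and 291 CPM in WT, 598, 581 and 608 CPM in AMPK-KO, 227, 251 and 188 CPM in early-stage and 116, 97.7 and 97.9 CPM in late-stage libraries. Nos2, the inducible nitric oxide synthase, stood at 163, 133 and 152 CPM in WT and 304, 291 and 294 CPM in AMPK-KO TAMs, against 136, 162 and 139 CPM in early-stage and 68.8, 65.4 and 64.8 CPM in late-stage TAMs. C3, the central complement protein, was at 228, 199 and 201 CPM in WT, 631, 639 and 565 CPM in AMPK-KO, 305, 321 and 361 CPM in early-stage and 164, 137 and 141 CPM in late-stage libraries. For these 3 genes the ratios were 1.05 and -1.09, 0.99 and -1.14 and 1.55 and -1.16 on the log2 scale. Pdcd1lg2, which encodes the PD-1 ligand PD-L2, differed by 2.09 and -1.20. The prostaglandin E synthase Ptges had the largest stage ratio of the class (1.10 and -2.58), and the interferon-inducible GTPase Tgtp1 (1.14 and -0.78) and its neighbor Gm12185 (1.49 and -1.11), whose exons overlap on the same strand, cannot be separated with certainty. Ly6i (2.33 and -1.51) and Ear2 (1.51 and -1.31) belong to families of close copies and are uncertain for the same reason. Upp1, the uridine phosphorylase, differed by 1.42 and -1.14, the inflammasome protein gene Mefv by 0.79 and -1.23, the arginine transporter Slc7a2 by 1.07 and -0.59, and the membrane proteins Ms4a8a by 0.72 and -1.63 and Ms4a4c by 0.60 and -0.85. The lectin receptors Cd209a (0.76 and -1.11) and Mgl2 (0.93 and -0.68) and the kynurenine monooxygenase Kmo (0.92 and -0.80) are also expressed by dendritic cells. Gdpd3 had the largest AMPK-KO ratio of all members (3.91 and -0.84) and is named after its values were seen, as are Acod1, the itaconate-forming enzyme (0.95 and -1.27), Hp, the hemoglobin-binding haptoglobin (0.86 and -2.47), and Lyz1, a lysozyme gene with a close copy in Lyz2 (0.60 and -1.41).

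NK cell genes made up a further group in this class. Gzmb, which encodes the cytotoxic protease granzyme B, was measured at 17.7, 20.3 and 18.3 CPM in WT, 59.6, 57.5 and 57.4 CPM in AMPK-KO, 45.6, 44.1 and 42.8 CPM in early-stage and 24.6, 26.5 and 29.3 CPM in late-stage libraries. Klrk1, the activating receptor NKG2D, was at 19.0, 24.6 and 24.8 CPM in WT, 62.2, 57.8 and 62.0 CPM in AMPK-KO, 37.4, 40.8 and 41.6 CPM in early-stage and 25.3, 26.0 and 24.6 CPM in late-stage libraries. Ncr1, the NK receptor NKp46, was low throughout, with 1.39, 1.73 and 2.19 CPM in WT, 6.15, 6.08 and 5.44 CPM in AMPK-KO, 5.82, 5.18 and 7.05 CPM in early-stage and 2.27, 3.05 and 3.53 CPM in late-stage libraries. In each of these the WT and late-stage libraries were the low ones and the AMPK-KO and early-stage libraries the high ones. Gzma (1.09 and -1.76), Klrb1c, the NK1.1 antigen (1.04 and -1.08), and Klrd1, the CD94 subunit (1.03 and -0.73), brought the members to 6 of the 9 NK cell markers in the pool. The chemokine Ccl5, made by NK and T cells and by macrophages, differed by 1.42 and -0.58, and the activating receptor Cd226 by 1.35 and -1.15. The 11 NK cell markers summed to 90.7 to 104 CPM in WT, 246 to 256 CPM in AMPK-KO, 211 to 222 CPM in early-stage and 118 to 143 CPM in late-stage libraries, and none was at 0. The 5 that are not members summed to 34.6 to 37.1 CPM in WT and 85.4 to 90.4 CPM in AMPK-KO, and to 71.9 to 76.5 CPM in early-stage and 49.998 to 65.3 CPM in late-stage libraries. Cells had been sorted as positive for CD11b and F4/80. Markers of 3 further cell types, none of them members, were higher in AMPK-KO than in WT and lower in late-stage than in early-stage libraries in their sums. The 12 fibroblast markers summed to 665 to 724 CPM in WT, 865 to 949 CPM in AMPK-KO, 953 to 1029 CPM in early-stage and 513 to 707 CPM in late-stage libraries, with none at 0. The 16 neutrophil markers summed to 141 to 146 CPM in WT, 209.8 to 216 CPM in AMPK-KO, 143 to 156 CPM in early-stage and 118 to 122 CPM in late-stage libraries, with Ly6g at 0 in all but 1 late-stage library. The 10 endothelial markers summed to 59.8 to 73.4 CPM in WT, 128 to 132 CPM in AMPK-KO, 105 to 108 CPM in early-stage and 91.1 to 97.2 CPM in late-stage libraries, with none at 0, while the median log2 fold change of the list for AMPK-KO over WT was -0.13, of the other sign than its sum. The part of NK, fibroblast, neutrophil and endothelial RNA in these differences was not tested.

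**Figure D4:**
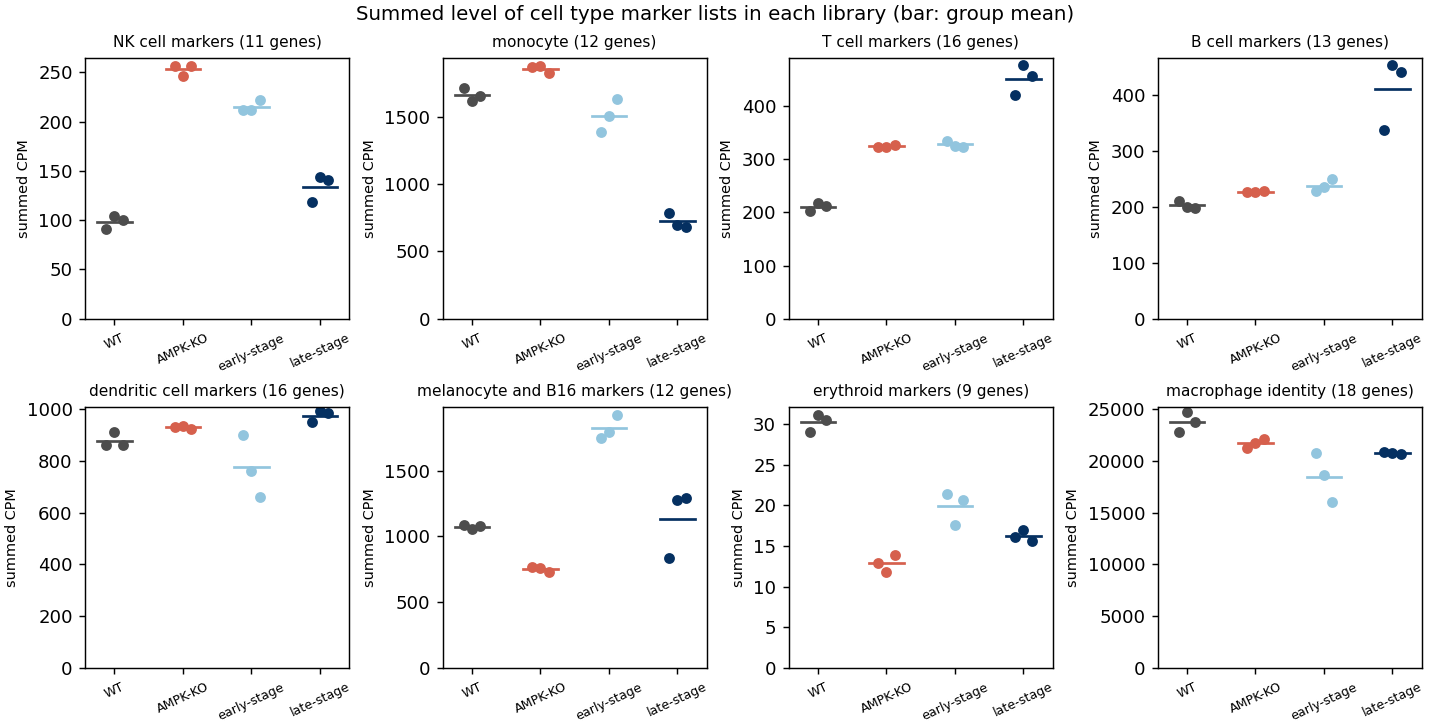
Points are the summed CPM of a cell type marker list in each of the 12 libraries, with a bar at the group mean and each axis starting at 0. NK cell markers were highest in AMPK-KO (246 to 256 CPM) and early-stage libraries, monocyte genes lowest in late-stage libraries (684 to 785 CPM), and melanocyte and B16 markers lower in AMPK-KO and late-stage than in WT and early-stage libraries, respectively.

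Of the 79 genes of this class, 19 had another gene of the class within 200 kb, in 7 groups, against 4 of 88 genes in 2 groups for lower in both and none in the remaining classes, and this difference was not tested. Neighbors were not counted over the pool, so that no background share stands beside these counts. On chromosome 6 the groups were Klrb1c, Klrb1b and Gm15987 (chr6:128778485-128975029) and Klrd1, Klrk1, Klrc1 and Klri2 (chr6:129591782-129740484), in the gene complex of NK cell lectin-like receptors. The genes for paired Ig-like receptors and their relatives, Gm15922, Gm15448, Gm14548 and Lilra6, lay at chr7:3731630-3915503, and Ly6i and Ly6c2 at chr15:74979534-75111970. The paired Ig-like receptor group and the pair Ly6i and Ly6c2 belong to families of close copies, so that the split of reads between those neighbors is uncertain. How alike the genes of the chromosome 6 groups are was not tested. In all of these groups, neighboring genes are not taken as separate observations. The coagulation factor genes F7 and F10 were neighbors at chr8:13026034-13056676.

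Of the 79 genes, 61 had a promoter entry, with 72 windows. The core of the interferon-stimulated response element, GAAANNGAA, which IRF proteins bind, was present in 17 of the 72 windows (23.6%, 14 of 61 genes), against 7.70% of the pool and 8.56% of all windows. The PU.1 site GAGGAAGT was present in 14 windows (19.4%, 12 of 61 genes), against 3.52% of the pool and 3.20% of all windows, and 3 of those genes are the near-identical Lilra6, Gm15448 and Gm14548. The PU.1 site was present in 8.0% of the windows of genes higher in both and 3.4% of those of genes lower in both. Sequences of 61 bases before the start are printed for the interferon core in 3 members of differing function, a protease, a chemokine receptor and an NK receptor, and in the overlapping pair Tgtp1 and Gm12185, whose stretches are nearly the same. The motif is in capitals and reads as its reverse complement in Ccr2 and Klrk1.
Gzma (chr13:113101013-113101073, minus strand): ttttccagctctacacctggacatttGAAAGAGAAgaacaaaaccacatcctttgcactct
Ccr2 (chr9:124102071-124102131, plus strand): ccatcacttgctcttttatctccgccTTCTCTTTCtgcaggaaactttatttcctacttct
Klrk1 (chr6:129623878-129623938, minus strand): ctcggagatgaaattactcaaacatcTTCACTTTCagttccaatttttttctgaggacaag
Tgtp1 (chr11:48992289-48992349, minus strand): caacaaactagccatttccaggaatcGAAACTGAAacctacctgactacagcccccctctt
Gm12185 (chr11:48927223-48927283, minus strand): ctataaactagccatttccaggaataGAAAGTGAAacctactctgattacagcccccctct
For the PU.1 site, the monocyte gene Ly6c2, the enzyme gene Kmo and 2 of the receptor copies on chromosome 7 are shown, the last 2 to make plain how alike their promoters are.
Ly6c2 (chr15:75112045-75112105, minus strand): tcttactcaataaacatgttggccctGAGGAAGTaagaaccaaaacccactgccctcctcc
Kmo (chr1:175632064-175632124, plus strand): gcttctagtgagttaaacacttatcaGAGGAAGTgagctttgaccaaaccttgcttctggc
Lilra6 (chr7:3915617-3915677, minus strand): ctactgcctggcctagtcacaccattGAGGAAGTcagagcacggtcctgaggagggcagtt
Gm15448 (chr7:3825783-3825843, minus strand): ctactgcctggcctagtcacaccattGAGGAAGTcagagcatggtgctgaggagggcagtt
A match is a description of the letters in the window and not evidence that a factor binds there.

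Genes higher in both AMPK-KO and late-stage TAMs were fewer and shared no single marker list. Cxcl14, a chemokine (ENSMUSG00000021508.11, chr13:56288643-56296551), was measured at 9.28, 10.5 and 8.47 CPM in WT, 27.1, 29.7 and 29.7 CPM in AMPK-KO, 10.3, 9.76 and 11.6 CPM in early-stage and 67.7, 66.0 and 71.4 CPM in late-stage libraries. Lipg, the endothelial lipase, stood at 13.4, 12.96 and 14.2 CPM in WT, 38.7, 44.1 and 37.7 CPM in AMPK-KO, 22.9, 24.9 and 25.9 CPM in early-stage and 108, 96.1 and 98.3 CPM in late-stage libraries. In both genes the stage difference was the larger, 2.70 and 2.04 against 1.62 and 1.57 on the log2 scale, and the late-stage libraries were the highest of all 12. Tnfsf13b, which encodes the B cell survival factor BAFF, was at 6.29, 6.52 and 7.21 CPM in WT, 14.4, 16.4 and 14.9 CPM in AMPK-KO, 6.82, 8.88 and 7.09 CPM in early-stage and 21.1, 19.9 and 18.9 CPM in late-stage libraries. Signaling proteins among the leading members were the SH2 adaptor Sh2d1b1 (1.13 and 1.07), the receptors Fcrl5 (1.34 and 1.12) and Gpr31c (1.09 and 1.31), and Asb2, a ubiquitin ligase subunit for filamins (1.06 and 1.73). The serine protease gene Htra4 differed by 1.27 and 1.17 and the Ig superfamily gene Igsf9 by 0.92 and 1.03.

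Itgax, the integrin CD11c of dendritic cells and of many tissue macrophages, was measured at 126, 114 and 116 CPM in WT, 268, 256 and 239 CPM in AMPK-KO, 121, 128 and 134 CPM in early-stage and 199.8, 189 and 186 CPM in late-stage libraries. Batf3, a transcription factor of dendritic cells, differed by 1.12 and 0.68, Spn, the sialophorin CD43 of nonclassical monocytes and lymphocytes, by 0.98 and 0.79, and Myh10, the nonmuscle myosin heavy chain IIB, by 1.06 and 0.81. The 16 dendritic cell markers summed to 861 to 910.2 CPM in WT, 924 to 934 CPM in AMPK-KO, 661 to 902 CPM in early-stage and 949 to 991 CPM in late-stage libraries, with none at 0. Several T cell genes, named after their values were seen, were members too: the inhibitory receptors Lag3 (1.68 and 0.65), Tigit (1.22 and 0.62) and Ctla4 (0.74 and 0.79), the costimulatory receptor Tnfrsf4 (0.71 and 0.78), Cd6 (0.89 and 0.79) and the kinase Zap70 (0.89 and 0.59). The 16 T cell markers, none of them a member and none at 0, summed to 202 to 217 CPM in WT and 323 to 326 CPM in AMPK-KO, and to 323 to 335 CPM in early-stage and 420.4 to 476 CPM in late-stage libraries. Without the 4 members among them, the dendritic cell markers stood in the opposite order between genotypes, at 685 to 748 CPM in WT and 571 to 593 CPM in AMPK-KO, and overlapped between stages, at 484 to 738 CPM in early-stage and 706 to 765 CPM in late-stage libraries. The part of T cell and dendritic cell RNA in this class was not tested. Of the 49 genes, 40 had a promoter entry, with 50 windows. The E-box CACGTG, read by MITF, TFEB and MYC, was present in 8 of them (16%), against 10.4% of the pool, and the AP-1 site in 6 (12%), among them the stretch of Itgax, which is shown with the site in capitals.
Itgax (chr7:128129467-128129527, plus strand): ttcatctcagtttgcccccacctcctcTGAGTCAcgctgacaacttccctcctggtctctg

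The class lower in AMPK-KO but higher in late-stage TAMs was the smallest, with 12 genes. Gdf3, a ligand of the TGF-beta family (ENSMUSG00000030117.5, chr6:122605403-122610087), was measured at 11.2, 14.0 and 12.4 CPM in WT, 4.93, 4.78 and 4.76 CPM in AMPK-KO, 7.87, 8.54 and 11.1 CPM in early-stage and 34.7, 35.5 and 36.9 CPM in late-stage libraries. Myc, the proto-oncogene transcription factor, stood at 58.3, 57.7 and 59.3 CPM in WT, 37.4, 37.3 and 35.7 CPM in AMPK-KO, 50.7, 47.4 and 38.3 CPM in early-stage and 78.8, 75.1 and 71.9 CPM in late-stage libraries. In both the AMPK-KO libraries were the lowest group and the late-stage libraries the highest. Ratios were -0.71 and 0.85 for the pseudokinase gene Prag1, -0.66 and 0.70 for the heme-binding protein gene Hebp1, -0.61 and 0.70 for the glycan kinase gene Pomk and -0.72 and 0.91 for Tmem273. Apol7c, of the apolipoprotein L family, differed by -1.26 and 0.97, and Cenpm, a centromere protein gene, by -0.76 and 0.65. The RNA-binding protein gene Stau2 (-0.65 and 0.62) and Gm16867 (-1.30 and 1.94), which shares exons with 4 genes on the opposite strand, were at low levels.

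Ighd, the constant region of immunoglobulin D of B cells, had the largest AMPK-KO ratio of this class, with 7.98, 6.91 and 7.11 CPM in WT, 1.17, 0.786 and 0.655 CPM in AMPK-KO, 6.46, 6.80 and 7.29 CPM in early-stage and 8.12, 15.1 and 14.3 CPM in late-stage libraries. The B cell receptor subunit gene Cd79a lay between 0.0950 and 0.124 CPM in the AMPK-KO libraries, against 4.51 to 5.596 CPM in WT. The sum of the 13 B cell markers did not follow, at 199 to 212 CPM in WT and 226 to 229.6 CPM in AMPK-KO, since Ighm alone gave 108 to 114 CPM in WT and 164 to 166 CPM in AMPK-KO libraries, while by stage it was 228 to 249.9 CPM and 337 to 454 CPM. The part of B cell RNA in the Ighd difference was not tested. Only 5 of the 12 genes had a promoter entry, with 6 windows, which is too few for a share to be read.

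To place the classes among the pathways they touch, gene lists were set beside the edgeR quasi-likelihood fits across all genes, with Benjamini-Hochberg adjustment and an adjusted p threshold of 0.05. AMPK-KO exceeded WT at that threshold for 11.3% of 17532 genes and fell below it for 9.78%, with a median log2 fold change of -0.0037. For late-stage against early-stage, 4.31% of 17630 genes were higher and 4.88% lower, with a median of 0.0027. The 1619 calls of the stage comparison depended on single libraries, from 653 calls when late-stage replicate 2 was left out to 2835 when it was early-stage replicate 1. Of 19 resident-type scavenger macrophage genes tested, 17 were called lower and none higher in AMPK-KO (median -0.77), and 13 lower and 1 higher in late-stage TAMs (median -0.87). Of 28 NRF2 targets, 20 were called lower and 1 higher in AMPK-KO (median -0.47), and 12 lower and none higher in late-stage TAMs (median -0.30). Both lists lay on the same side in the 2 comparisons. They hold 10 and 5 members, respectively, which were chosen on these same comparisons. Calls and medians without the members were not computed, so that these counts are a description and no separate support. Among 15 iron handling genes, 8 were called lower and 1 higher in AMPK-KO, and 5 lower and none higher in late-stage TAMs, with Slc40a1, Cd163 and Hmox1 as members.

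Other lists lay on opposite sides. Of the 12 monocyte genes, 7 were called higher and 1 lower in AMPK-KO (median 0.54), and 1 higher and 9 lower in late-stage TAMs (median -1.52). Of these 12, 6 are members, which were chosen on these same comparisons. Without those 6 the summed level ran the other way by genotype, at 1100.2 to 1225 CPM in WT and 923 to 969 CPM in AMPK-KO. By stage the sum without them was still lower in late-stage TAMs. All 11 NK cell markers were called higher in AMPK-KO (median 1.15), and 7 lower and none higher in late-stage TAMs (median -0.69). Of these 11, 6 are members chosen on these same comparisons, and the sum of the others, given above, lay on the same sides. The type I interferon list had 11 of 25 genes called higher and 3 lower in AMPK-KO and 10 lower and none higher in late-stage TAMs, and gave no member. The interferon gamma response list had 30 of 33 genes called higher and none lower in AMPK-KO (median 1.03), but in late-stage TAMs 12 lower and 1 higher with a median of only -0.27, and it gave 2 members, Nos2 and Tgtp1. MHC class II genes, 11 of 11 called higher in AMPK-KO and 4 lower and none higher by stage, gave no member, because no stage ratio of theirs met the rule. The reverse held for the cell cycle list, of which 16 of 30 genes were called lower in AMPK-KO and 25 higher in late-stage TAMs (medians -0.21 and 0.47), again with no member. Among the 13 B cell markers 8 were called lower and 2 higher in AMPK-KO, and 5 higher and none lower in late-stage TAMs.

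Of 32 apoptosis genes tested, 28 were in the pool and none was a member, with 10 called higher and 2 lower in AMPK-KO and none higher and 2 lower in late-stage TAMs. The ferroptosis list had 2 members, Slc40a1 and Hmox1, both lower in both comparisons, with 9 of 23 genes called lower and 2 higher in AMPK-KO and 5 lower and none higher in late-stage TAMs. Necroptosis and pyroptosis contributed Il1b and Mefv, both higher in AMPK-KO and lower in late-stage TAMs, with 12 of 20 genes called higher and 1 lower in AMPK-KO and 1 higher and 6 lower in late-stage TAMs. The list of disulfidptosis genes and actin targets contributed Myh10, higher in both, and Nckap1, lower in both, with 7 of 34 genes called higher and 7 lower in AMPK-KO and 5 higher and 4 lower in late-stage TAMs. No subunit of AMPK and none of its upstream kinases was a member.

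**Figure D5:**
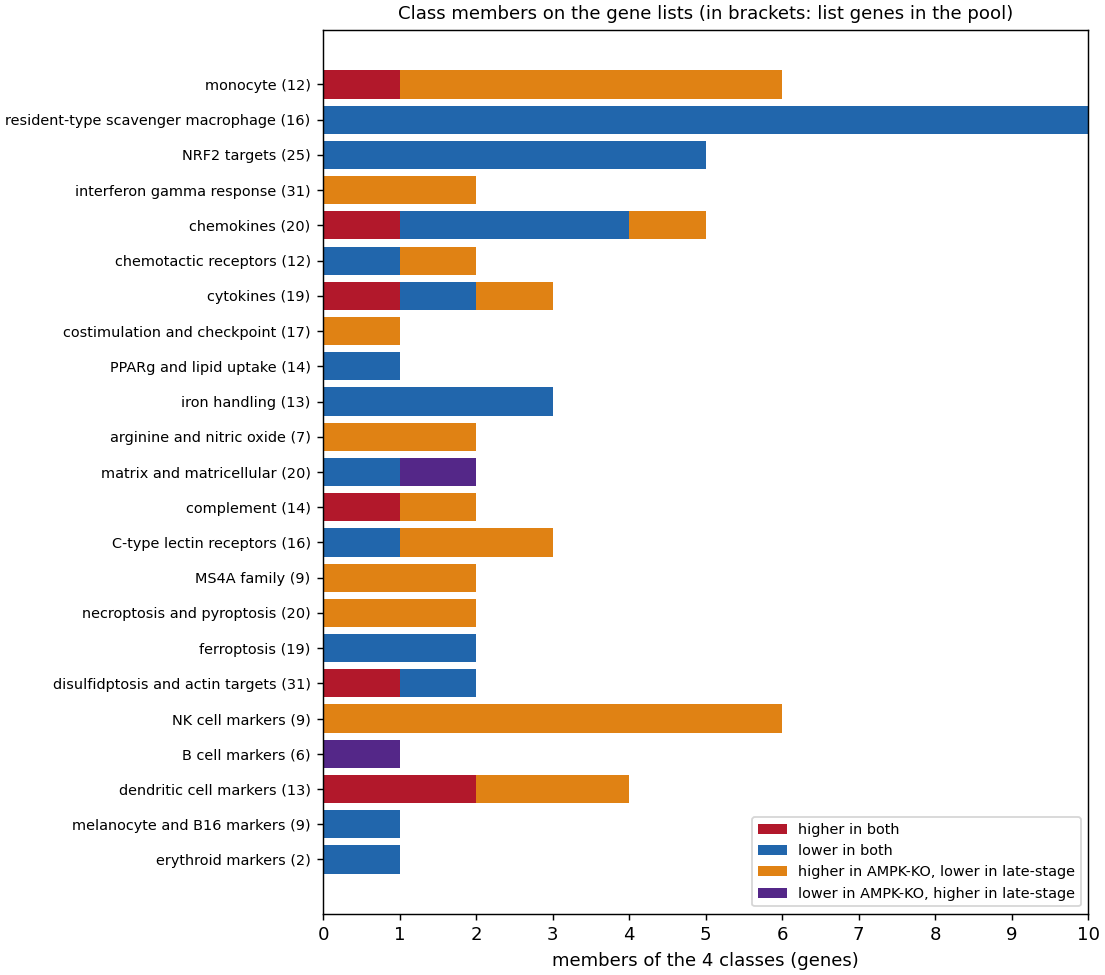
Bars count the members of the 4 classes on each gene list that has any, with the number of list genes in the pool in brackets; a gene on several lists is counted in each. The scavenger macrophage list holds 10 members, all lower in both, and the NK cell list 6, all higher in AMPK-KO and lower in late-stage.

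Setting the group levels side by side across the 2 comparisons, which were counted in separate tables, WT TAMs lay nearer to the early-stage than to the late-stage mean for 43 of the 49 genes higher in both (87.8%) and for 65 of the 88 genes lower in both (73.9%). These means are the ones that selected the genes, so that the shares and medians are a description that the rule itself constrains. For the 79 genes higher in AMPK-KO and lower in late-stage TAMs that number was 35 (44.3%), and for the 12 of the last class 8 (66.7%). Over the whole pool it was 5212 of 10169 genes (51.3%). The median gene lower in both stood 0.92 log2 units above the late-stage level in WT and 0.19 below it in AMPK-KO TAMs. In the class higher in both, the medians were 0.96 below the late-stage level in WT and 0.08 below it in AMPK-KO TAMs. The median gene higher in AMPK-KO and lower in late-stage TAMs stood 0.42 above the late-stage level in WT and 1.57 above it in AMPK-KO TAMs. WT TAMs of the knockout experiment and late-stage TAMs are both from day 15, and the experiments differ in the floxed allele, in the Lyz2 level and in the Y-linked counts given above, so that a difference between these 2 groups cannot be told apart from one between the experiments.

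Of the 228 members, 55 shared exonic bases with another annotated gene, 17 on the same strand and 42 on the opposite one, and the sources used here do not state whether the counting used strand. Named members with an overlap on the opposite strand included Il1b with Il1bos, Gclm, Me1, Gas6, Folr2, Fcna, Yap1, Ptpn14, Ace, Gdpd3, Slc7a2, Ms4a4c, Htra4 and Hebp1. The reads of such pairs cannot be told apart without strand. Further overlaps on the same strand included Spp1 with Gm42793, Pde2a with Gm45837, Gclm with Gm6061, and Klrb1b and Klrb1c with Gm44511. The levels of these genes are uncertain to that extent. The gamma-activated sequence TTCNNNGAA was present in 8.05% to 10% of the windows of the 3 larger classes against 6.87% of the pool, and the AP-1 site in 12.5% of those of genes higher in AMPK-KO and lower in late-stage TAMs. The CCAAT box CCAAT was present in 32.0% to 34.7% of the windows of the 3 larger classes against 37.1% of the pool, the hypoxia core ACGTG in 18.1% to 26.0% against 26.4%, the kappa-B core GGGANTTTC in 0% to 2.78% against 1.02%, and the cAMP response element TGACGTCA in 0% to 2.0% against 3.14%.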

How the data were processed

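Bulk RNA-seq of sorted TAMs was analysed in 12 libraries, 3 per group. The authors deposited 2 tables of raw read counts per gene, made with HISAT2 and featureCounts, for which versions are not given in the sources used here. The methods name GRCh38, whereas the labels name mouse builds, and the mouse gene identifiers matched GENCODE M21 (55141 present, 54349 with the same version). No other column of per-sample values was left unused. CPM was computed on library totals. The fits across all genes used edgeR 4.0.16 (R 4.3.3, TMM, filterByExpr, glmQLFit and glmQLFTest, Benjamini-Hochberg adjustment), separately in each table, and were tested on simulated data. Tables were handled with Python 3.11.15, pandas 2.3.3 and numpy 2.4.6. The members and gene lists were chosen with earlier results of these data known. Named members are the 10 of each class with the largest smaller ratio, those on fixed lists of role genes, and those of the smallest class; others are said to be named after their values were seen. Gene lists numbered 42 and motifs 11, searched on both strands of the RefSeq windows. Some members, list genes and motifs are not reported here. Alternatives were the CPM minimum, the ratio limit, TMM and RLE scaling, edgeR calls in place of separation, all chromosomes, DESeq2 1.42.0, no low-count filter, a replicate block and leaving out each library. Intervals cover counting error only.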

Additional observations from a re-analysis of the deposited data

How the results depend on the processing

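Class sizes are given as higher in both, lower in both, higher in AMPK-KO and lower in late-stage, and lower in AMPK-KO and higher in late-stage, against 49, 88, 79 and 12 genes. With a minimum of 1 CPM they were 84, 139, 125 and 27, and with 10 CPM 42, 65, 62 and 7. With an absolute log2 ratio of at least 1 they were 8, 17, 25 and 2. They were 45, 97, 82 and 12 with TMM scaling, 44, 82, 74 and 12 with edgeR calls in place of separation, and 49, 88, 79 and 13 with every chromosome. Leaving out each library gave 42 to 54, 70 to 96, 76 to 86 and 11 to 16, and the 70 was without late-stage replicate 1. Of the named members higher in both, Itgax and Zap70 left the class with TMM scaling and Batf3 with edgeR calls. Itgax also left it without early-stage replicate 1 or late-stage replicate 1. Lag3, Tigit, Batf3 and Zap70 left it without early-stage replicate 3. Without late-stage replicate 2 Tigit and Zap70 left it, and Zap70 also without early-stage replicate 2 or late-stage replicate 3. For AMPK-KO against WT, edgeR called 3693 genes, against 4106 with DESeq2, 2965 without the low-count filter and 2414 (without WT replicate 3) to 4039 (without WT replicate 1) with 1 library left out, and 2419 without AMPK-KO replicate 2. For stage it called 1619, against 2447 with DESeq2, 936 without the filter and 653 (without late-stage replicate 2) to 2835 (without early-stage replicate 1), with 680 without early-stage replicate 2, 853 without late-stage replicate 1 and 682 without late-stage replicate 3. The cause of these shifts was not tested. Deviations of same-numbered libraries correlated at 0.42, -0.11 and 0.10 for AMPK-KO with WT and at 0.06, -0.03 and 0.11 for late-stage with early-stage, so that not every pair deviated together. Differently numbered libraries correlated at -0.47 to 0.46 for AMPK-KO with WT and at -0.12 to 0.10 for late-stage with early-stage. A replicate block gave 3862 and 1417 calls. The direction of a member is fixed by the rule when 1 library is left out and is no sign of stability.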
